A study of Mus musculus with 10 samples.

Results

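This account follows 40 mouse genes that make reducing power, control the antioxidant response or carry it out: 7 enzymes of the pentose phosphate pathway, 5 other enzymes that make or handle NADPH, the transcription factor NRF2 (gene Nfe2l2) with its sensor KEAP1, 3 detoxification genes, 6 genes of glutathione synthesis and reduction, 2 glutathione peroxidases, 6 genes of the thioredoxin system, 6 peroxiredoxins, and 2 superoxide dismutases with catalase. They were chosen by name, with earlier results of these data known, and are 40 of the 23992 gene symbols in the deposited tables. Where a gene had several transcripts, the one read most in the 10 libraries together was used, and all 40 genes had enough reads to be tested.

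Splenic CD8+ T cells of C57BL/6N mice, cultured in a medium with sodium pyruvate and the reducing agent β-mercaptoethanol, had all been activated with anti-CD3 and anti-CD28 (2 µg/ml each, 48 h), pooled and washed. One group then stayed without cytokine, another received human IL-2 (100 IU/ml) and another mouse IL-21 (100 ng/ml) for 48 h, the time the labels give unless stated otherwise. Both remaining groups had a cytokine and LDHi, in IL-2 + LDHi or IL-21 + LDHi, where an inhibitor of lactate dehydrogenase known by the code name NCI-737 was added at 1 µM with the activating antibodies and again with the cytokine. An effect on activation and an effect on the cytokine response cannot be told apart, since no group had the inhibitor without a cytokine. Poly(A) RNA was sequenced in 2 libraries per group. The labels do not say whether replicates came from separate mice or cultures. A p-value here measures the spread between such libraries, and this may be technical only. That spread was pooled over the 5 groups, although it differed between them. The SD over genes of the log2 difference between replicates was 0.76 in IL-21 and 0.49 without cytokine. It was 0.42 in IL-21 + LDHi, 0.36 in IL-2 and 0.30 in IL-2 + LDHi.

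The oxidative branch of the pentose phosphate pathway makes NADPH from glucose 6-phosphate, and its non-oxidative branch moves carbon between ribose 5-phosphate, which nucleotides need, and glycolysis. NADPH keeps glutathione and thioredoxin reduced, and these in turn recycle the enzymes that break down peroxides. KEAP1 holds NRF2 for degradation until oxidants or electrophiles modify its cysteines. NRF2 then binds antioxidant response elements beside genes such as Nqo1, Gclm, Txnrd1 and Srxn1, so its activity is set mainly at the level of the protein. Activated T cells need glutathione to sustain growth. Lactate dehydrogenase, the inhibited enzyme, turns pyruvate into lactate and returns NAD+ to glycolysis.

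The authors' totals were 45138204 to 62848913 reads per library, of which 59.9% (IL-21 replicate 2) to 79.4% fell on the transcripts kept. Because the authors' RPKM (reads scaled to the transcript's length and to the library's total) uses those totals, IL-21 replicate 2 reads low on that scale: 34 of the 40 genes were lower in it than in IL-21 replicate 1 by RPKM, against 25 of 40 once scaled by effective library size. Levels below are RPKM, and fold changes with their tests come from read counts scaled by TMM. Reads on the CD8 T cell markers were high throughout (summed RPKM of 7 markers 1423 to 2066). Reads on markers of other cell types differed between groups: 10 macrophage and dendritic cell markers summed to 146 and 186 RPKM without cytokine, 57.8 and 61.0 in IL-21, and 11.5 and 13.9 in IL-2. With the inhibitor they summed to 13.7 and 19.4 in IL-2 and 6.94 and 9.61 in IL-21. The 5 basophil and mast cell markers summed to 313.5 and 653 RPKM without cytokine, 102 and 128 in IL-21, and 0.923 to 4.26 in the other groups. In bulk RNA, fewer cells of a type and less RNA per cell cannot be told apart.

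Levels spanned a wide range. Averaged over the 5 group means, Txnip, which encodes an inhibitor of thioredoxin, was the most abundant at 205 RPKM, followed by superoxide dismutase Sod1 at 173 and peroxiredoxin Prdx1 at 126 RPKM. The lowest were Srxn1 at 1.84, the cystine transporter gene Slc7a11 at 0.213 and the malic enzyme gene Me1 at 0.116 RPKM. The RPKM of all 40 genes summed to 1569 and 1541 without cytokine, 2123 and 2059 in IL-2, and 1614 and 1075 in IL-21. With the inhibitor the sums were 1746 and 1828 in IL-2 and 1309 and 1324 in IL-21. Of the 40 genes, 22 had their highest group mean in IL-2 and 22 their lowest in IL-21 + LDHi. These sums and ranks rest on RPKM, and the ranks of all genes were not counted. Reads on the kept transcripts were 78.8% and 79.4% of the authors' totals in IL-2 but 69.3% and 70.0% in IL-21 + LDHi, so RPKM reads low in IL-21 + LDHi. By RPKM, for example, both G6pdx libraries were lower there than in IL-2 + LDHi. From read counts scaled by TMM its log2 fold change was 0.06 ± 0.13.

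**Figure D1:**
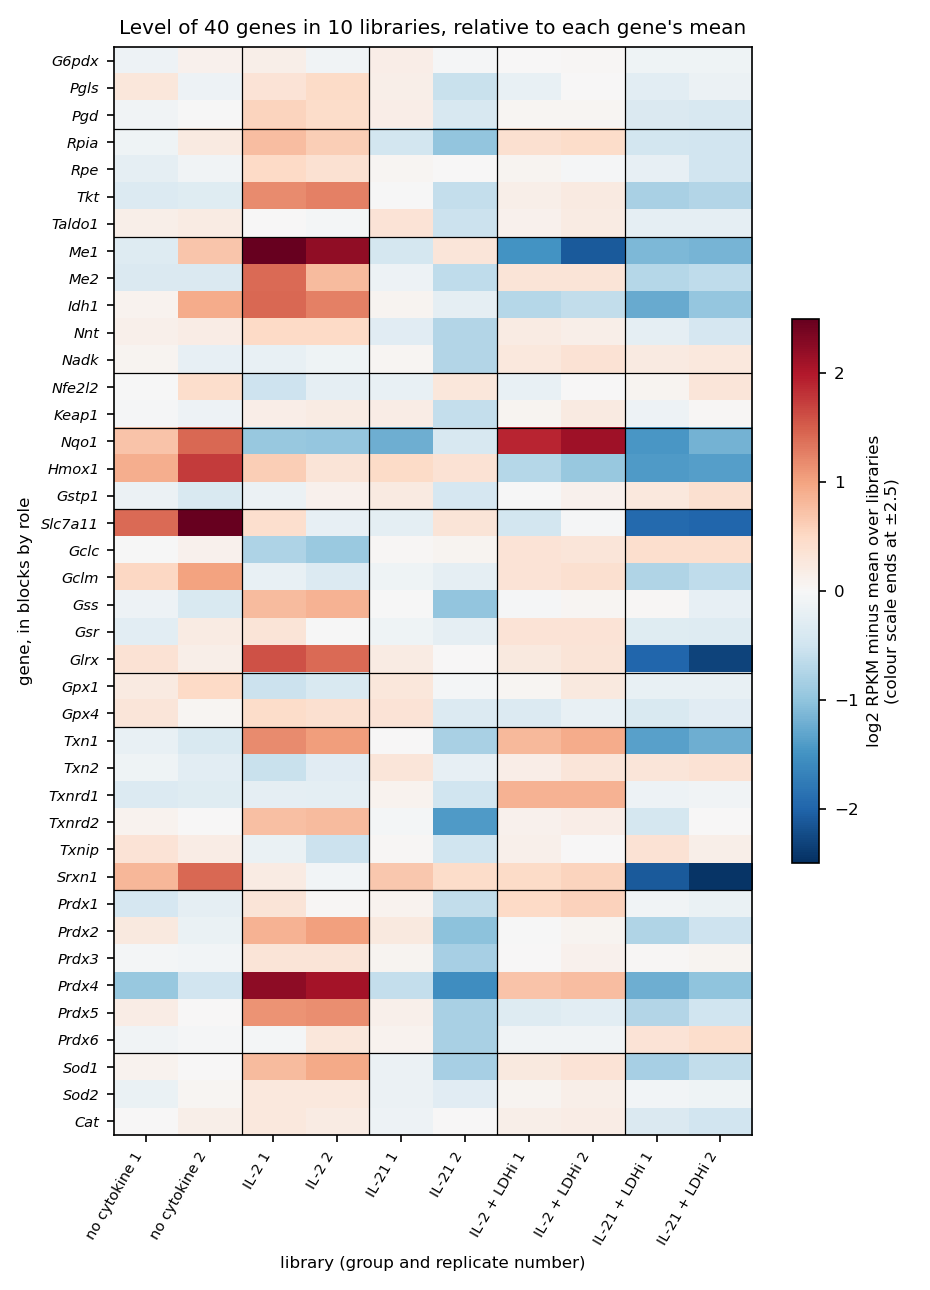
Level of each of the 40 genes (rows, in blocks by role) in the 10 libraries (columns, by group and replicate), as log2 RPKM minus that gene's mean over the libraries, with the colour scale ending at ±2.5. The IL-2 libraries are above the mean for most pentose phosphate, NADPH and peroxiredoxin genes, and the IL-21 + LDHi libraries are lowest for Srxn1, Glrx, Slc7a11 and Txn1.

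In IL-2, 4 of the 5 other NADPH enzymes, 4 of the 6 peroxiredoxins, thioredoxin and glutaredoxin were higher, and the glutathione synthesis genes Gclc and Gclm were lower. Against no cytokine, 16 of the 40 genes rose and 8 fell at an adjusted p below 0.05. Of all 14357 genes tested 50.5% were called, 25.6% higher and 24.8% lower, so 24 of 40 is not far from that background. The median log2 fold change of the 40 genes was 0.27, against -0.03 for all genes. Scaled by library size alone, which moved the median of all genes by -0.14, the split was 13 higher and 10 lower. Of the 24 calls, 14 held under every alternative that was run, including each fit that left out 1 library: Pgd, Tkt, Me2, Gss, Glrx, Txn1, Prdx4, Prdx5 and Sod1 as higher, and Nqo1, Gclc, Gclm, Gpx1 and Srxn1 as lower.

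In IL-21, few of these genes were called. Against no cytokine none rose and 5 of 40 fell (Rpia, Nnt, Nqo1, Slc7a11 and Gclm), where 11.5% of all genes were called, 5.65% higher and 5.9% lower. The median was -0.09 for the 40 genes and -0.01 for all genes. At an unadjusted p below 0.05, 11 of the 40 passed, beside 27.5% of all genes, which is the same share. None of the 5 calls held when only these groups were fitted or when no cytokine replicate 2 was left out, both of which gave 0 calls. The count was 12 without IL-21 replicate 1, 3 without IL-2 replicate 1 and 2 without IL-2 replicate 2 or any of the 4 LDHi libraries. Against IL-2, 4 genes were higher in IL-21 and 16 lower, with 49.6% of all genes called (24.9% higher, 24.7% lower) and medians of -0.26 and 0.02. That comparison shares the IL-2 libraries with the comparison of IL-2 against no cytokine. Scaling also moved the share of higher calls over all genes: against no cytokine from 50.8% to 40.9% by library size alone in IL-2, and from 48.9% to 24.8% on log2(RPKM + 1) in IL-21. Against IL-2 it went from 50.3% to 30.9% on that scale, where the median of all genes shifted by -0.12. No called gene of the 40 changed sign under any scaling.

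**Figure D2:**
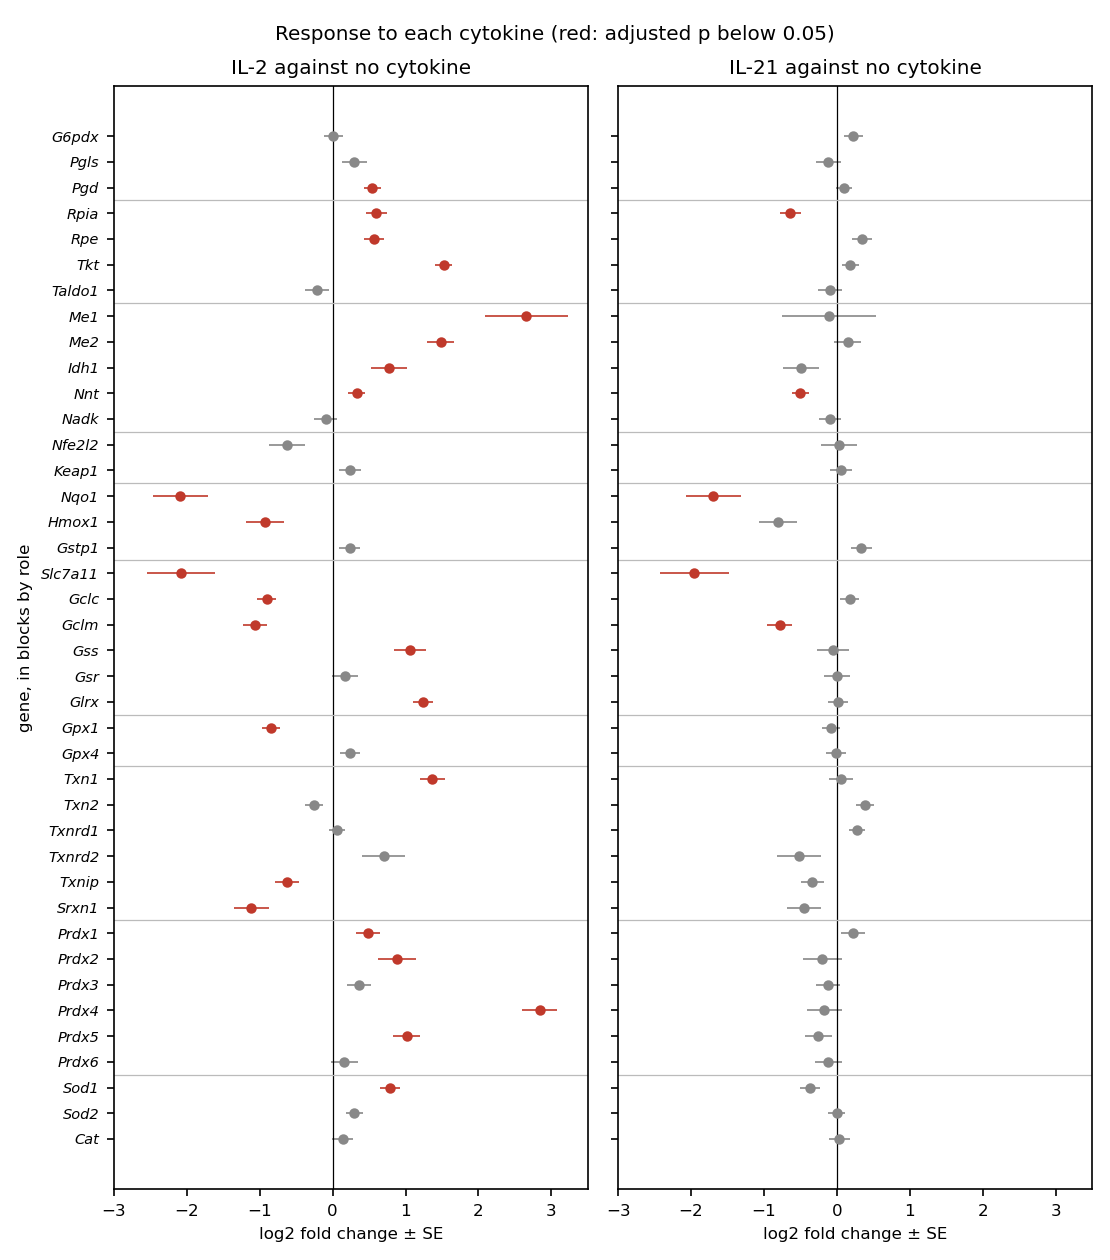
Log2 fold change ± SE of each gene (rows, in blocks by role) in IL-2 (left) and in IL-21 (right), each against the 2 libraries without cytokine, from read counts; red points have an adjusted p below 0.05. In IL-2, 16 genes are red to the right of 0 and 8 to the left, while in IL-21 only 5 are red, all to the left.

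With the inhibitor in IL-2, the NADPH enzymes Me1, Me2, Idh1 and Nnt and the peroxiredoxins Prdx2, Prdx4 and Prdx5 were lower. Among NRF2 targets and glutathione genes, Nqo1, Txnrd1, Gclc and Gclm were higher, Hmox1 was lower, and Srxn1 and Slc7a11 were not called. Of the calls named here, those of Me2, Nnt, Prdx2 and Gclm were lost under some alternatives. In IL-2 + LDHi against IL-2, 6 of 40 genes rose and 16 fell, with 39.4% of all genes called (17.8% higher, 21.6% lower). The medians were -0.29 for the 40 genes and 0.01 for all genes. Scaled by library size alone, which moved the median of all genes by 0.12, the split was 8 higher and 13 lower, and 56.3% rather than 45.2% of all calls were higher. The count of calls was 14 without IL-2 replicate 1 or without either IL-2 + LDHi library. Of the genes called higher in IL-2 against no cytokine 13 were called lower here, and 4 called lower there (Gclc, Gclm, Gpx1 and Nqo1) were called higher here. Both comparisons use the same IL-2 libraries, so these counts are not independent. The share of all genes that turned in this way was not counted, so the counts are not read as a trait of these genes.

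With the inhibitor in IL-21, 2 of 40 genes rose and 8 fell, led by Srxn1 and the glutaredoxin gene Glrx, where 31.4% of all genes were called (11.1% higher, 20.3% lower). The medians were -0.20 for the 40 genes and -0.03 for all genes. The count of 10 calls became 4 and 5 without IL-21 + LDHi replicates 1 and 2, 20 without IL-21 replicate 1, 6 when only these groups were fitted, and 5, all lower, on log2(RPKM + 0.1). Only Hmox1, Glrx, Txn1 and Srxn1 held their calls under every alternative run. Under the inhibitor, IL-21 against IL-2 gave 2 genes higher and 11 lower, with 26.1% of all genes called (9.39% higher, 16.7% lower) and medians of -0.22 and 0.01. On log2(RPKM + 1) the split was 0 and 13, with 19.4% rather than 36.0% of all calls higher, and without IL-21 replicate 1 or 2 the count rose from 13 to 21.

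In the oxidative branch of the pentose phosphate pathway Pgd rose in IL-2, and G6pdx was called in no comparison. G6pdx (chrX:74409483-74428880, mm10) encodes glucose 6-phosphate dehydrogenase, the enzyme that commits glucose 6-phosphate to the pathway and makes its first NADPH. G6pdx was at 18.3 and 21.7 RPKM without cytokine, 22.1 and 18.7 in IL-2 and 22.4 and 19.6 with IL-21. With the inhibitor it was at 20.1 and 20.4 RPKM in IL-2 and 18.6 and 18.7 in IL-21. All libraries lay between 18.3 and 22.4 RPKM, and G6pdx passed the test in none of the 7 comparisons. Its log2 fold change was 0.01 ± 0.13 in IL-2 against no cytokine and -0.05 ± 0.13 in IL-2 + LDHi against IL-2. Of the 40 genes, 10 share exon bases with a gene on the opposite strand, and the strand setting of the count was not stated. For G6pdx these are 418 bases shared with Ikbkg, where reads of either gene cannot be told apart. Keap1, Gclm, Txnip and Me1 share 510, 296, 606 and 30 bases in the same way.

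Pgd (chr4:149149991-149166705) encodes 6-phosphogluconate dehydrogenase, the second NADPH-making step. Without cytokine Pgd had 27.9 and 29.6 RPKM, in IL-2 44.1 and 40.9 and in IL-21 33.3 and 22.7. The inhibitor groups had 30.8 and 30.7 RPKM (IL-2 + LDHi) and 23.2 and 22.6 RPKM (IL-21 + LDHi). Both IL-2 libraries were above all others. Pgd rose in IL-2 against no cytokine (0.55 ± 0.11, adjusted p = 0.00338), was lower in IL-21 than in IL-2 (-0.45 ± 0.11, adjusted p = 0.0101) and fell with the inhibitor in IL-2 (-0.51 ± 0.11, adjusted p = 0.00673). The IL-21 call ended without IL-2 replicate 1 (log2 -0.38, adjusted p = 0.0789), and that of the inhibitor without IL-2 replicate 1 or either IL-2 + LDHi library (log2 -0.49, adjusted p = 0.0656 without IL-2 + LDHi replicate 2). Pgls, for the lactonase between these steps, fell with the inhibitor in IL-2 (-0.53 ± 0.17, adjusted p = 0.0367), a call that ended without any 1 of 6 libraries (both of IL-2 and all 4 with the inhibitor; log2 -0.44, adjusted p = 0.216 without IL-2 + LDHi replicate 1). It shares 776 exon bases with Fam129c on the same strand, so its reads are uncertain.

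In the non-oxidative branch, transketolase stood out in IL-2. Tkt (chr14:30549131-30574724) encodes the enzyme that transfers 2-carbon units between sugar phosphates. Levels of Tkt were 50.2 and 52.1 RPKM without cytokine, 144 and 153 in IL-2 and 63.5 and 42.2 with IL-21. They were 70.5 and 75.1 RPKM in IL-2 + LDHi and 36.4 and 38.4 in IL-21 + LDHi. Both IL-2 libraries were above every other library, the IL-2 + LDHi libraries came next, and the IL-21 + LDHi libraries were lowest. Tkt was 2.87-fold higher in IL-2 than without cytokine (log2 1.52 ± 0.12, adjusted p = 1.81e-05), 2.10-fold lower with the inhibitor in IL-2 (log2 -1.07 ± 0.12, adjusted p = 0.000194) and lower in IL-21 + LDHi than in IL-2 + LDHi (-0.78 ± 0.12, adjusted p = 0.00114). It also fell with the inhibitor in IL-21 (-0.51 ± 0.12, adjusted p = 0.0101), a call that ended without either IL-21 + LDHi library (log2 -0.48, adjusted p = 0.0827 without IL-21 + LDHi replicate 1) and when only these groups were fitted (adjusted p = 0.0899).

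Rpia and Rpe encode the isomerase and the epimerase that act on ribulose 5-phosphate. For Rpia (chr6:70765720-70792175), the levels were 15.1 and 19.00 RPKM without cytokine, 27.6 and 24.7 in IL-2 and 11.8 and 8.13 with IL-21. Those with the inhibitor were 21.5 and 22.3 RPKM in IL-2 and 11.8 and 11.6 in IL-21. The IL-2 libraries were highest, the IL-2 + LDHi libraries next, and both IL-21 groups were below the libraries without cytokine. Rpia was lower in IL-21 than in IL-2 (-1.23 ± 0.15, adjusted p = 0.000209). It also rose in IL-2 (0.60 ± 0.14, adjusted p = 0.00786) and was lower in IL-21 + LDHi than in IL-2 + LDHi (-0.72 ± 0.15, adjusted p = 0.00593). These calls ended without no cytokine replicate 1 or IL-2 replicate 1 (log2 0.51, adjusted p = 0.0656 without IL-2 replicate 1) and without IL-21 + LDHi replicate 2 (log2 -0.70, adjusted p = 0.0553). Rpe rose in IL-2 (0.57 ± 0.14, adjusted p = 0.00936) and fell with the inhibitor in IL-2 (-0.45 ± 0.14, adjusted p = 0.0314), but the first call ended without no cytokine replicate 1 or IL-2 replicate 1 (log2 0.50, adjusted p = 0.0671 without IL-2 replicate 1) and the second without any of the 4 libraries compared (log2 -0.40, adjusted p = 0.190 without IL-2 + LDHi replicate 2). Rpe shares 558 exon bases with Kansl1l on the opposite strand. Taldo1, for transaldolase, passed in no comparison, and its group means ran from 61.5 RPKM in IL-21 + LDHi to 81.4 RPKM without cytokine. Of 8 further tested genes of the pathway and of ribose use, 4 rose and 3 fell in IL-2, where 25.6% of all genes rose and 24.8% fell. With the inhibitor in IL-2, 1 rose and 2 fell, where 17.8% of all genes rose and 21.6% fell. Their medians were 0.08 and -0.01, against -0.03 and 0.01 for all genes. Pgm2, from this list, encodes an enzyme of the phosphoglucomutase family. It was at 11.5 ± 0.219 RPKM without cytokine, 69.3 ± 13.9 in IL-2 but 11.9 ± 0.287 in IL-2 + LDHi (SD, n = 2). Its log2 fold change was 2.57 ± 0.16, adjusted p = 6.22e-06 in IL-2 and -2.58 ± 0.16, adjusted p = 1.26e-05 with the inhibitor. Which enzyme of that family the symbol stands for in the annotation used was not checked. Its place among the genes of ribose use is therefore uncertain.

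Of the 5 other NADPH enzymes, 4 rose in IL-2 and 4 fell with the inhibitor in IL-2, where 25.6% of all genes rose and 21.6% fell. Nnt, counted both times, lost its call under 14 and 10 of the 19 alternatives. Me2 (chr18:73764954-73815438) encodes the mitochondrial malic enzyme. RPKM of Me2 was 27.1 and 26.9 without cytokine, 92.5 and 59.9 in IL-2 and 31.8 and 22.5 with IL-21. In IL-2 + LDHi it was 43.2 and 43.3, and in IL-21 + LDHi 21.2 and 22.4. The IL-2 libraries were highest but differed from each other, and IL-2 + LDHi lay between them and the rest. Me2 rose in IL-2 (1.48 ± 0.19, adjusted p = 0.000233) and fell with the inhibitor in IL-2 (-0.86 ± 0.18, adjusted p = 0.00585; adjusted p = 0.0548 when only these groups were fitted). Its call in IL-21 + LDHi against IL-2 + LDHi (-0.81 ± 0.18, adjusted p = 0.0110) ended without any of those 4 libraries (log2 -0.79, adjusted p = 0.0808 without IL-21 + LDHi replicate 1).

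Idh1 (chr1:65158616-65186479), for cytosolic isocitrate dehydrogenase, fell more with the inhibitor in IL-2 than any other of these NADPH enzymes except Me1. Idh1 was at 4.43 and 7.87 RPKM without cytokine, 11.3 and 9.996 in IL-2 and 4.36 and 3.55 with IL-21. With the inhibitor it was at 2.52 and 2.70 RPKM in IL-2 and 1.74 and 2.12 in IL-21. Both inhibitor groups were below every library without inhibitor. The log2 fold change was -2.07 ± 0.26, adjusted p = 0.000356 in IL-2 and -1.06 ± 0.25, adjusted p = 0.0125 in IL-21. The second call ended without IL-21 + LDHi replicate 1 (log2 -0.93, adjusted p = 0.0968), and the difference between the inhibitor effects did not pass (1.00 ± 0.35, adjusted p = 0.0745). Its rise in IL-2 against no cytokine (0.77 ± 0.25, adjusted p = 0.0270) ended without no cytokine replicate 1 or either IL-2 library (log2 0.67, adjusted p = 0.137 without IL-2 replicate 1) and by library size alone (adjusted p = 0.0677).

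Me1, the cytosolic malic enzyme gene, rested on few reads: 8 and 13 without cytokine, 94 and 46 in IL-2, 7 and 10 with IL-21, 4 and 2 in IL-2 + LDHi and 4 and 4 in IL-21 + LDHi. Its reads were thus mostly in IL-2, and the ratio of IL-2 to IL-2 + LDHi from the summed reads was 24.7, with a 95% exact interval of 11.1 to 68.4 that covers counting error only. The fall with the inhibitor in IL-2 passed (log2 -4.64 ± 0.67, adjusted p = 0.000809). The rise in IL-2 (2.66 ± 0.57, adjusted p = 0.00416) ended without IL-2 replicate 1 (log2 1.93, adjusted p = 0.0516). Nnt, the transhydrogenase of the inner mitochondrial membrane whose gene is disrupted in C57BL/6J but not in C57BL/6N mice, was read in every library. Without cytokine Nnt had 5.50 and 5.72 RPKM, in IL-2 7.14 and 7.17 and in IL-21 4.17 and 3.02. The inhibitor groups had 5.82 and 5.61 RPKM (IL-2 + LDHi) and 4.31 and 3.78 RPKM (IL-21 + LDHi). The 2 IL-2 libraries were highest. Nnt was lower in IL-21 than in IL-2 (-0.83 ± 0.12, adjusted p = 0.000572). Its smaller changes in IL-2 (0.33 ± 0.12, adjusted p = 0.0421), in IL-21 against no cytokine (-0.50 ± 0.12, adjusted p = 0.0298) and with the inhibitor in IL-2 (-0.36 ± 0.12, adjusted p = 0.0366) ended without any of 8, 9 and 6 of the 10 libraries, at the weakest with adjusted p = 0.148, 0.123 and 0.223. NAD kinase (Nadk), which makes NADP+, was at 31.7 ± 1.30 RPKM in IL-2 + LDHi and 30.1 ± 0.579 in IL-21 + LDHi (SD, n = 2), against 23.2 ± 0.900 and 20.9 ± 7.96 without the inhibitor. Only the difference in IL-21 passed (0.52 ± 0.16, adjusted p = 0.0322), and that call ended without any of 7 of the 10 libraries (log2 0.51, adjusted p = 0.138 without IL-21 + LDHi replicate 2).

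Among 16 further tested sources of NADPH and NAD, 8 rose and 2 fell in IL-2, and 1 rose and 10 fell with the inhibitor in IL-2. Of all genes 25.6% rose and 24.8% fell in IL-2, and 17.8% rose and 21.6% fell with the inhibitor. The medians of the 16 were 0.73 and -0.92, against -0.03 and 0.01 for all genes. Mthfd2, for the mitochondrial folate enzyme that makes NADH or NADPH, had group means of 8.51 RPKM without cytokine, 51.8 in IL-2, 11.4 in IL-21, 22.2 in IL-2 + LDHi and 7.09 in IL-21 + LDHi. It rose in IL-2 (2.59 ± 0.15, adjusted p = 5.65e-06) and fell with the inhibitor in IL-2 (-1.26 ± 0.14, adjusted p = 0.000241). Shmt2, for the mitochondrial serine hydroxymethyltransferase upstream of it, was at 24.9, 93.8, 34.2, 49.5 and 43.1 RPKM in the same order of groups. It too rose in IL-2 (1.89 ± 0.11, adjusted p = 4.46e-06) and fell with the inhibitor there (-0.96 ± 0.10, adjusted p = 0.000164).

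Neither NRF2 nor its sensor passed the test at the RNA level in any of the 7 comparisons, though Nfe2l2 did so under several alternatives. For Nfe2l2 (chr2:75675513-75704663), the levels were 23.3 and 31.7 RPKM without cytokine, 16.4 and 19.9 in IL-2 and 20.5 and 28.5 with IL-21. Those with the inhibitor were 20.4 and 23.4 RPKM in IL-2 and 24.5 and 28.8 in IL-21. Replicate 2 was above replicate 1 in all 5 groups, and the IL-2 libraries were lowest. The nearest were IL-2 against no cytokine (-0.62 ± 0.25, adjusted p = 0.0637) and IL-21 against IL-2 (0.65 ± 0.25, adjusted p = 0.0567), and the inhibitor effect was 0.23 ± 0.25 in IL-2 and 0.05 ± 0.25 in IL-21. Lower Nfe2l2 in IL-2 than without cytokine was called under 7 of the 19 alternatives (log2 from -0.83 to -0.37 over all 19, adjusted p from 0.00703 to 0.324). Higher Nfe2l2 in IL-21 than in IL-2 was called under 4 (log2 from 0.21 to 0.98, adjusted p from 0.00171 to 0.394), and in IL-21 + LDHi than in IL-2 + LDHi under 3. Keap1 (chr9:21229730-21239332) lay between 7.50 and 13.2 RPKM in all libraries and also passed in no comparison; it gained a call under 2 alternatives for IL-2 against no cytokine and under 1 for IL-21 against IL-2, for the inhibitor in IL-21 and for the interaction. Bach1, for a repressor that competes with NRF2 at its sites and was taken from a list of NRF2 partners and targets, fell in IL-2 (-0.79 ± 0.10, adjusted p = 0.000266) and rose with the inhibitor there (0.70 ± 0.10, adjusted p = 0.00085), and Nfe2l1, for a related factor, rose in IL-2 (0.90 ± 0.13, adjusted p = 0.000444) and fell with the inhibitor there (-0.80 ± 0.13, adjusted p = 0.00137). Of the 34 genes of that list 10 rose and 9 fell in IL-2, where 25.6% of all genes rose and 24.8% fell. With the inhibitor in IL-2, 5 rose and 13 fell, where 17.8% of all genes rose and 21.6% fell. The medians of the list were 0.15 and -0.42, against -0.03 and 0.01 for all genes.

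The promoters of 4 NRF2 target genes with different behaviour in these data are shown because NRF2 binds such elements. They come from RefSeq start sites on GRCm38.p6, written 5′ to 3′ on the strand of the gene, with capitals marking the antioxidant response element core TGACNNNGC, searched on both strands. In the 3 windows that hold it, it lies on the strand opposite to the gene, so the capitals are its reverse complement. Those of Nqo1 (chr8:107403206-107403455, minus strand) and Txnrd1 (chr10:82858956-82859205, plus strand, 1 of 3 listed start sites) are the 250 bases before the start. That of Gclm (chr3:122245307-122245486, plus strand) stops where the annotated gene begins, and that of Srxn1 (chr2:152105542-152105571, plus strand) is 30 bases of the first exon around its core.
Nqo1: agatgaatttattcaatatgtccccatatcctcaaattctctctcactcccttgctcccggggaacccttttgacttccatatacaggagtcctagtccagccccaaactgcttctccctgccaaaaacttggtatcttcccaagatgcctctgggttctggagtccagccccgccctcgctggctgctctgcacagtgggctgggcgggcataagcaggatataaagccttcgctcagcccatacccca
Txnrd1: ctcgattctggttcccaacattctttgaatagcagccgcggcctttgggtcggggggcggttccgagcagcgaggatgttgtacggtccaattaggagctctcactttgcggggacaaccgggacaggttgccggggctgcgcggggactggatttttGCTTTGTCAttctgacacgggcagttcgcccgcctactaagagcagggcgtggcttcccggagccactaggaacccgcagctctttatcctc
Gclm: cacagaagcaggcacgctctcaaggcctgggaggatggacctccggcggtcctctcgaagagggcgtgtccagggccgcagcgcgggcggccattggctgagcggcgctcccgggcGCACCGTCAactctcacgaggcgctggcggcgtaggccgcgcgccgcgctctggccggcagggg
Srxn1: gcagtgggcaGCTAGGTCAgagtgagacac
The core lay at -92 to -84 from the start in Txnrd1 and at 29 to 37 after it in Srxn1. In Gclm it lay at -134 to -126 from the start site of its window. That site lies inside the annotated gene, beyond the end of the printed stretch. No window of Nqo1 held the core, which says only that these letters are not in these 300 bases. Promoter windows of 300 bases (250 before the start and 50 after) were matched for 34 of the 40 genes, 44 windows in all, and 9 of them (20.5%) held the core, against 12.4% of all 32851 windows. The others were those of Nfe2l2, Prdx1, Pgd, Me1, Sod1 and G6pdx. In Prdx1 and Me1 the core held TGACTCA, the sequence that AP-1 factors bind. Gclc, Gsr, Me2, Hmox1, Prdx6 and Nnt had no entry.

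Nqo1 (chr8:107388225-107403205) encodes a quinone reductase and is a standard readout of NRF2 activity. Levels of Nqo1 were 2.01 and 3.31 RPKM without cytokine, 0.635 and 0.629 in IL-2 and 0.521 and 0.924 with IL-21. They were 4.56 and 5.31 RPKM in IL-2 + LDHi and 0.446 and 0.540 in IL-21 + LDHi. The IL-2 + LDHi libraries were highest, those without cytokine next, and the other 3 groups were all below 1 RPKM (34 to 65 reads per library). Nqo1 rose with the inhibitor in IL-2, by 7.57-fold (log2 2.92 ± 0.39, adjusted p = 0.000508), while its effect in IL-21 did not pass (-0.61 ± 0.40, adjusted p = 0.273). The difference between these effects passed (-3.53 ± 0.55, adjusted p = 0.00218). It was also 8.80-fold lower in IL-21 + LDHi than in IL-2 + LDHi (log2 -3.14 ± 0.39, adjusted p = 0.000378). Against no cytokine it was lower in IL-2 (-2.09 ± 0.38, adjusted p = 0.00180) and in IL-21 (-1.69 ± 0.38, adjusted p = 0.0228), the second call ending without no cytokine replicate 2 (log2 -1.28, adjusted p = 0.116). With the inhibitor in IL-2, 6 of 10 macrophage and dendritic cell markers rose and 1 fell. Of the 10, 2 were at 0 reads in each IL-2 library (C1qb in both, C1qa and C1qc in 1 each) and none was at 0 in IL-2 + LDHi. The NK markers Ncr1, Klrb1c and Eomes also all rose there, with Ncr1 at 4.34 and 3.90 RPKM in IL-2 + LDHi and at most 0.242 in the other libraries. Of 7 CD8 T cell markers 2 rose and 2 fell with the inhibitor in IL-2, and of 2 CD4 T cell markers 1 rose. Of 5 basophil and mast cell markers and 5 tested red cell markers, 2 each fell and 0 rose. No B cell or granulocyte marker was called. The macrophage and dendritic cell list summed to 13.7 and 19.4 RPKM in IL-2 + LDHi, against 146 and 186 without cytokine, where Nqo1 was lower. The part of these cells or genes in the Nqo1 result was not tested.

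Hmox1 (chr8:75093618-75100593), for heme oxygenase 1, was lower with the inhibitor in both cytokines. RPKM of Hmox1 was 7.71 and 13.9 without cytokine, 6.32 and 5.15 in IL-2 and 5.77 and 5.28 with IL-21. In IL-2 + LDHi it was 2.49 and 2.12, and in IL-21 + LDHi 1.55 and 1.59. Both inhibitor groups were below every other library. Hmox1 fell with the inhibitor in IL-2 (-1.35 ± 0.27, adjusted p = 0.00444) and in IL-21 (-1.85 ± 0.28, adjusted p = 0.00118), and the difference between these effects did not pass (-0.50 ± 0.38, adjusted p = 0.399). In IL-21 macrophage markers fell with it (7 of 10 fell and none rose with the inhibitor), while in IL-2 the larger number rose; the part of such cells was not tested. Its fall in IL-2 against no cytokine (-0.93 ± 0.26, adjusted p = 0.0169) ended without no cytokine replicate 2 or IL-2 replicate 2 (log2 -0.43, adjusted p = 0.135 without no cytokine replicate 2). Gstp1, for a glutathione transferase with a near-identical neighbour, Gstp2, that can share its reads, was called only in IL-21 + LDHi against IL-2 + LDHi (0.46 ± 0.14, adjusted p = 0.0424), a call that ended without either IL-2 library or any of the 4 with the inhibitor (log2 0.41, adjusted p = 0.240 without IL-2 + LDHi replicate 1) and by library size alone (adjusted p = 0.0707).

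**Figure D3:**
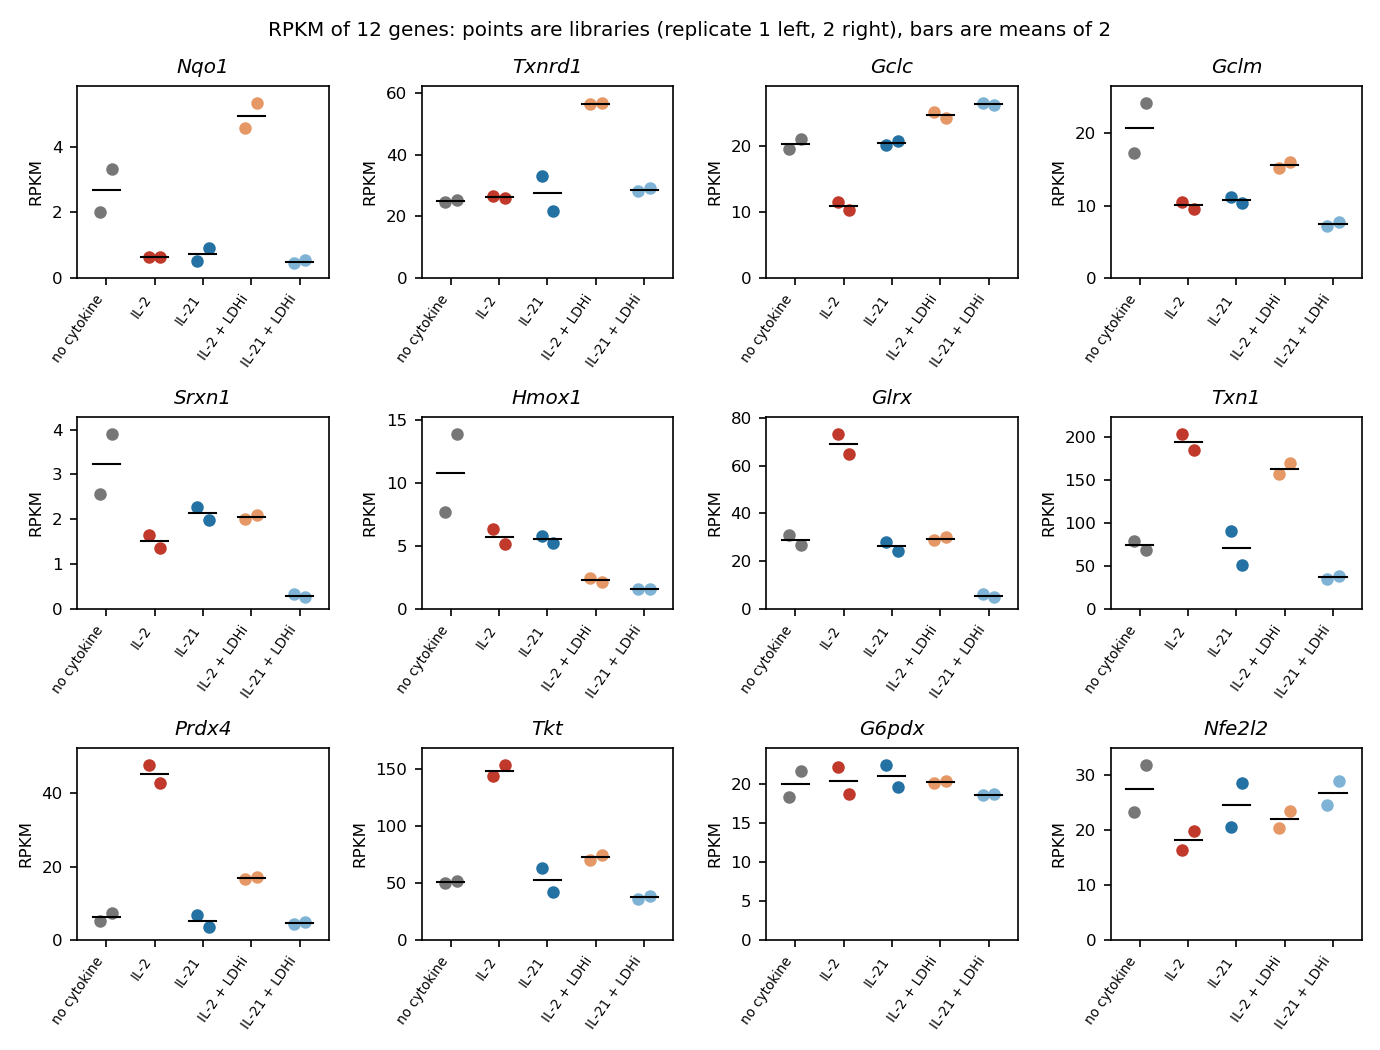
RPKM of 12 of the genes in each library (points, replicate 1 on the left and 2 on the right of each group) with the mean of 2 libraries (bars), each panel on its own axis from 0. Nqo1 and Txnrd1 stand highest in IL-2 + LDHi, Srxn1, Glrx and Txn1 lowest in IL-21 + LDHi, Prdx4 and Tkt highest in IL-2, and G6pdx lies between 18.3 and 22.4 RPKM in all libraries.

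Glutathione is made by glutamate-cysteine ligase, with its catalytic (Gclc) and modifier (Gclm) subunits, and then by glutathione synthetase (Gss); these genes did not move together. For Gclc (chr9:77754535-77794489), the levels were 19.6 and 21.1 RPKM without cytokine, 11.6 and 10.4 in IL-2 and 20.2 and 20.8 with IL-21. Those with the inhibitor were 25.1 and 24.3 RPKM in IL-2 and 26.5 and 26.2 in IL-21. Both IL-2 libraries were below every other library. Gclc fell in IL-2 (-0.91 ± 0.13, adjusted p = 0.00053), was higher in IL-21 than in IL-2 (1.08 ± 0.13, adjusted p = 0.000238) and rose 2.19-fold with the inhibitor in IL-2 (log2 1.13 ± 0.13, adjusted p = 0.00027). Its inhibitor effect in IL-21 did not pass (0.32 ± 0.13, adjusted p = 0.0952). The difference between the effects did (-0.81 ± 0.18, adjusted p = 0.0139), but this call ended without IL-2 replicate 2, IL-2 + LDHi replicate 1 or either IL-21 + LDHi library (log2 -0.77, adjusted p = 0.0634 without IL-2 + LDHi replicate 1).

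For Gclm (chr3:122245487-122267215), the levels were 17.3 and 24.1 RPKM without cytokine, 10.5 and 9.52 in IL-2 and 11.2 and 10.3 with IL-21. Those with the inhibitor were 15.3 and 15.97 RPKM in IL-2 and 7.16 and 7.73 in IL-21. The libraries without cytokine were highest, those of IL-2 + LDHi next and those of IL-21 + LDHi lowest. Gclm fell in IL-2 (-1.06 ± 0.17, adjusted p = 0.000835) and in IL-21 (-0.79 ± 0.17, adjusted p = 0.0191). The second call ended without no cytokine replicate 2 (log2 -0.52, adjusted p = 0.0882). With the inhibitor it rose in IL-2 (0.60 ± 0.17, adjusted p = 0.0200) and fell in IL-21 (-0.57 ± 0.17, adjusted p = 0.0312). The first of these calls ended without any of the 4 libraries compared (log2 0.54, adjusted p = 0.106 without IL-2 replicate 2), and the second without IL-21 replicate 2 or any of the 4 LDHi libraries (log2 -0.52, adjusted p = 0.156 without IL-21 + LDHi replicate 1). The difference between the effects passed in every fit run (-1.17 ± 0.24, adjusted p = 0.00835), as did that between IL-21 + LDHi and IL-2 + LDHi (-0.89 ± 0.17, adjusted p = 0.00431).

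Gss ran opposite to Gclc in IL-2. Gss was at 4.05 and 3.40 RPKM without cytokine, 7.68 and 8.09 in IL-2 and 4.37 and 2.22 with IL-21. With the inhibitor it was at 4.33 and 4.58 RPKM in IL-2 and 4.50 and 3.84 in IL-21. Both IL-2 libraries stood highest, and the other groups lay between 2.22 and 4.58 RPKM. Gss rose in IL-2 (1.06 ± 0.22, adjusted p = 0.00331) and fell with the inhibitor there (-0.86 ± 0.22, adjusted p = 0.0120). The second call ended without any of the 4 libraries compared (log2 -0.83, adjusted p = 0.0877 without IL-2 + LDHi replicate 1). Its exons share 395 bases with Acss2 on the opposite strand, so part of its reads is uncertain. Slc7a11, for the cystine-glutamate exchanger that feeds glutathione synthesis, had 189 and 369 reads without cytokine and 16 to 83 in the other libraries. It fell in IL-2 (-2.08 ± 0.47, adjusted p = 0.00552) and with the inhibitor in IL-21 (-2.07 ± 0.53, adjusted p = 0.0172). These calls ended without IL-2 replicate 2 (log2 -1.77, adjusted p = 0.0536) and without IL-21 replicate 2 or either IL-21 + LDHi library (log2 -2.05, adjusted p = 0.102 without IL-21 + LDHi replicate 2). Its call in IL-21 against no cytokine (-1.95 ± 0.47, adjusted p = 0.0311) ended without any library but no cytokine replicate 1 or IL-21 replicate 2 (log2 -1.16, adjusted p = 0.169 without no cytokine replicate 2). Slc7a11, Hmox1, Gclm and Srxn1 had their highest mean without cytokine, where the macrophage and basophil markers were also highest; the part of those cells was not tested. Gsr, for glutathione reductase, passed in no comparison and had group means of 12.96 to 20.4 RPKM. Lower Gsr in IL-21 + LDHi than in IL-2 + LDHi was called under 7 of the 19 alternatives.

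Glrx (chr13:75839885-75850151) encodes glutaredoxin, which removes glutathione from protein thiols, and was among the genes that moved most. Without cytokine Glrx had 30.9 and 26.8 RPKM, in IL-2 72.99 and 64.8 and in IL-21 28.03 and 24.3. The inhibitor groups had 28.8 and 30.1 RPKM (IL-2 + LDHi) and 6.14 and 4.84 RPKM (IL-21 + LDHi). Levels peaked in IL-2 and were lowest in IL-21 + LDHi, and the other 3 groups lay between 24.3 and 30.9 RPKM. Glrx rose in IL-2 (1.24 ± 0.14, adjusted p = 0.000126) and fell with the inhibitor 2.41-fold in IL-2 (log2 -1.27 ± 0.14, adjusted p = 0.0002) and 4.88-fold in IL-21 (log2 -2.29 ± 0.15, adjusted p = 6.92e-06), and the fall was larger in IL-21 by the test of the difference (-1.02 ± 0.20, adjusted p = 0.00695). Among 28 further tested genes of glutathione handling and thiol exchange, 12 rose and 7 fell in IL-2 (25.6% and 24.8% of all genes), and 3 rose and 4 fell in IL-21 (5.65% and 5.9%). With the inhibitor, 5 rose and 9 fell in IL-2 (17.8% and 21.6% of all genes), and 3 rose and 5 fell in IL-21 (11.1% and 20.3%). Their medians in that order were 0.24, -0.05, -0.40 and -0.28, against -0.03, -0.01, 0.01 and -0.03 for all genes.

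Of the glutathione peroxidase genes, Gpx1 fell in IL-2 while Gpx4 did not pass there. Gpx1 (chr9:108339080-108340342), for the cytosolic enzyme, was lowest in IL-2. Levels of Gpx1 were 76.8 and 93.1 RPKM without cytokine, 45.5 and 50.5 in IL-2 and 80.6 and 63.96 with IL-21. They were 68.3 and 77.97 RPKM in IL-2 + LDHi and 57.7 and 58.1 in IL-21 + LDHi. Both IL-2 libraries were below all others. Gpx1 fell in IL-2 (-0.84 ± 0.12, adjusted p = 0.000508) and rose with the inhibitor in IL-2 (0.57 ± 0.12, adjusted p = 0.00584), a call that ended without IL-2 replicate 1 or IL-2 + LDHi replicate 2 (log2 0.48, adjusted p = 0.0634 without IL-2 + LDHi replicate 2). In IL-21 the inhibitor effect was -0.35 ± 0.12, adjusted p = 0.0578, and the difference between the effects passed (-0.91 ± 0.17, adjusted p = 0.00572). Gpx4, for the enzyme that reduces lipid peroxides in membranes, was at 112 and 108 RPKM in IL-2 and 63.7 and 71.2 in IL-2 + LDHi, and fell with the inhibitor there (-0.75 ± 0.14, adjusted p = 0.00347).

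In the thioredoxin system Txnrd1 rose with the inhibitor in IL-2, and Txn1 fell with it in IL-21. Txnrd1 (chr10:82833951-82897724) encodes thioredoxin reductase 1. RPKM of Txnrd1 was 24.5 and 25.2 without cytokine, 26.6 and 26.1 in IL-2 and 32.97 and 21.9 with IL-21. In IL-2 + LDHi it was 56.5 and 56.7, and in IL-21 + LDHi 28.2 and 29.1. The IL-2 + LDHi libraries stood above all others, and the other 4 groups lay between 21.9 and 32.97 RPKM. Txnrd1 rose 2.09-fold with the inhibitor in IL-2 (log2 1.06 ± 0.11, adjusted p = 0.000154) but had a log2 fold change of 0.05 ± 0.11, adjusted p = 0.769 in IL-21, and the difference passed (-1.01 ± 0.16, adjusted p = 0.00212). The mitochondrial reductase Txnrd2 was instead highest in IL-2, at 5.79 and 5.999 RPKM, and was called only as lower in IL-21 than in IL-2 (-1.22 ± 0.30, adjusted p = 0.00911), with adjusted p = 0.0525 when only these groups were fitted.

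Txn1 (chr4:57943373-57956411) encodes cytosolic thioredoxin. Txn1 was at 79.3 and 68.6 RPKM without cytokine, 202 and 184 in IL-2 and 90.7 and 50.8 with IL-21. With the inhibitor it was at 156 and 169 RPKM in IL-2 and 35.2 and 38.3 in IL-21. The IL-2 libraries were highest, the IL-2 + LDHi libraries next, and the IL-21 + LDHi libraries below all others. Txn1 rose in IL-2 (1.37 ± 0.17, adjusted p = 0.000207) and fell with the inhibitor in IL-21 (-0.95 ± 0.17, adjusted p = 0.00282). Its effect in IL-2 did not pass (-0.29 ± 0.17, adjusted p = 0.199), but the difference between these effects did not pass (-0.66 ± 0.24, adjusted p = 0.0777). It was 3.91-fold lower in IL-21 + LDHi than in IL-2 + LDHi (log2 -1.97 ± 0.17, adjusted p = 3.96e-05). Mitochondrial thioredoxin, Txn2, was lowest in IL-2 at 33.1 ± 4.32 RPKM (SD, n = 2) and rose with the inhibitor there (0.61 ± 0.12, adjusted p = 0.00428). Txnip, the thioredoxin inhibitor, ran from 138 to 257 RPKM and fell only in IL-2 against no cytokine (-0.62 ± 0.16, adjusted p = 0.0110), a call that ended without no cytokine replicate 1 or IL-2 replicate 2 (log2 -0.42, adjusted p = 0.122 without IL-2 replicate 2).

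Srxn1 (chr2:152105524-152111376) encodes sulfiredoxin, which restores over-oxidised peroxiredoxins. Without cytokine Srxn1 had 2.57 and 3.89 RPKM, in IL-2 1.65 and 1.37 and in IL-21 2.28 and 1.98. The inhibitor groups had 2.003 and 2.10 RPKM (IL-2 + LDHi) and 0.333 and 0.262 RPKM (IL-21 + LDHi). The IL-21 + LDHi libraries (46 and 37 reads) were far below all others. With the inhibitor Srxn1 fell 7.30-fold in IL-21 (log2 -2.87 ± 0.26, adjusted p = 5.78e-05), its effect in IL-2 did not pass (0.40 ± 0.23, adjusted p = 0.210), and the difference between the effects passed (-3.27 ± 0.35, adjusted p = 0.000319). It was also lower in IL-2 than without cytokine (-1.11 ± 0.24, adjusted p = 0.00397). In IL-21 macrophage markers (7 of 10) and basophil markers (5 of 5) fell with the inhibitor too. Srxn1 in IL-21 + LDHi was also 6.07-fold lower than in IL-2 + LDHi (log2 -2.60 ± 0.26, adjusted p = 9.47e-05), where the basophil list summed to 1.54 and 1.54 RPKM, against 0.923 and 1.53 in IL-21 + LDHi. The macrophage and dendritic cell list summed to 6.94 and 9.61 RPKM in IL-21 + LDHi against 13.7 and 19.4 in IL-2 + LDHi, with 3 of 10 markers called lower and 0 higher. The NK cell list summed to 11.3 and 11.1 against 38.1 and 39.1 RPKM, with 3 of 3 called lower, and the CD4 T cell list to 0.731 and 0.535 against 4.73 and 4.43 RPKM, with 1 of 2 called lower. No B cell, granulocyte or red cell marker was called between these groups. The part of such cells was not tested.

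Peroxiredoxins reduce hydrogen peroxide with electrons from thioredoxin, and Prdx4, the member that works in the endoplasmic reticulum, moved most. Prdx4 lies at chrX:155323918-155342272. Levels of Prdx4 were 5.20 and 7.25 RPKM without cytokine, 47.6 and 42.8 in IL-2 and 6.70 and 3.44 with IL-21. They were 16.6 and 17.3 RPKM in IL-2 + LDHi and 4.31 and 5.03 in IL-21 + LDHi. IL-2 stood far above all other groups, and IL-2 + LDHi came second. Prdx4 was 7.17-fold higher in IL-2 than without cytokine (log2 2.84 ± 0.24, adjusted p = 2.77e-05) and fell with the inhibitor in IL-2 (-1.46 ± 0.23, adjusted p = 0.00121). In IL-21 the inhibitor effect was -0.12 ± 0.24, adjusted p = 0.725. The difference between the effects passed (1.34 ± 0.33, adjusted p = 0.0191) but ended without either IL-2 library, either IL-2 + LDHi library or IL-21 + LDHi replicate 2 (log2 1.24, adjusted p = 0.0798 without IL-2 replicate 1).

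Prdx5 (chr19:6906697-6910106), found in mitochondria, peroxisomes and cytosol, was highest in IL-2 too. RPKM of Prdx5 was 50.6 and 44.7 without cytokine, 96.1 and 98.9 in IL-2 and 48.3 and 25.3 with IL-21. In IL-2 + LDHi it was 35.5 and 37.1, and in IL-21 + LDHi 26.7 and 31.4. The 2 IL-2 libraries were apart from all the rest. It rose in IL-2 (1.01 ± 0.19, adjusted p = 0.00187) and fell with the inhibitor there (-1.46 ± 0.19, adjusted p = 0.000442), but it shares 409 exon bases with Trmt112 on the opposite strand. Prdx2, which shares 177 and 173 exon bases with Rnaseh2a and Junb on the opposite strand, had the same directions, 0.88 ± 0.27, adjusted p = 0.0217 in IL-2 and -0.96 ± 0.27, adjusted p = 0.0190 with the inhibitor. The first call ended without IL-2 replicate 1 or 2 or no cytokine replicate 2 (log2 0.70, adjusted p = 0.129 without no cytokine replicate 2) and the second without any of the 4 libraries compared (log2 -0.87, adjusted p = 0.111 without IL-2 replicate 2). Prdx1 was highest in IL-2 + LDHi at 172 and 183 RPKM. Its call in IL-2 against no cytokine (0.48 ± 0.16, adjusted p = 0.0321) ended without any of 6 of the 10 libraries (log2 0.32, adjusted p = 0.224 without IL-2 replicate 1), and its inhibitor effect in IL-2 did not pass (0.31 ± 0.16, adjusted p = 0.164). Mitochondrial Prdx3 was called only as lower in IL-21 than in IL-2 (-0.49 ± 0.17, adjusted p = 0.0371), which ended without any library but IL-21 replicate 1 (log2 -0.49, adjusted p = 0.139 without IL-2 replicate 2).

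Prdx6, which also has phospholipase activity, was the only peroxiredoxin of the 6 with its highest mean in IL-21 + LDHi. Prdx6 was at 43.7 and 45.1 RPKM without cytokine, 44.4 and 56.3 in IL-2 and 49.2 and 26.2 with IL-21. With the inhibitor it was at 43.6 and 43.5 RPKM in IL-2 and 58.7 and 62.3 in IL-21. The IL-21 + LDHi libraries were highest, and the other groups lay between 26.2 and 56.3 RPKM. It was higher with the inhibitor in IL-21 (0.68 ± 0.18, adjusted p = 0.0212) and higher in IL-21 + LDHi than in IL-2 + LDHi (0.65 ± 0.18, adjusted p = 0.0288). The first call ended without either IL-21 + LDHi library (log2 0.65, adjusted p = 0.111 without IL-21 + LDHi replicate 2) and the second without IL-2 replicate 2 or any of the 4 LDHi libraries (log2 0.64, adjusted p = 0.155 without IL-2 + LDHi replicate 2).

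Of the superoxide dismutase genes and catalase, only Sod1 passed. Sod1 (chr16:90220762-90226333) encodes the copper-zinc superoxide dismutase of the cytosol. Without cytokine Sod1 had 170.5 and 161 RPKM, in IL-2 275 and 306 and in IL-21 144 and 89.6. The inhibitor groups had 188 and 203 RPKM (IL-2 + LDHi) and 89.3 and 104 RPKM (IL-21 + LDHi). The IL-2 libraries were highest, IL-2 + LDHi next, and IL-21 with or without inhibitor lowest. Sod1 rose in IL-2 (0.79 ± 0.14, adjusted p = 0.00154), was lower in IL-21 than in IL-2 (-1.16 ± 0.14, adjusted p = 0.000233) and fell with the inhibitor in IL-2 (-0.61 ± 0.14, adjusted p = 0.00808), the last call ending without IL-2 replicate 2 or IL-2 + LDHi replicate 1 (log2 -0.52, adjusted p = 0.0783 without IL-2 replicate 2). The mitochondrial manganese dismutase gene, Sod2, lay between 9.004 and 13.2 RPKM, and catalase, Cat, between 21.7 and 36.6; neither passed in any comparison. The nearest were Sod2 in IL-2 (0.30 ± 0.11, adjusted p = 0.0558) and Cat with the inhibitor in IL-21 (-0.42 ± 0.15, adjusted p = 0.0582).

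Nqo1, Txnrd1, Srxn1, Gclm, Glrx and Gpx1 differed in their response to the inhibitor between the cytokines. In each the log2 fold change, sign included, was lower in IL-21 than in IL-2. That was not a weaker response in all of them: Glrx fell more in IL-21, and Srxn1 was called, as lower, in IL-21 only. The interaction term tested the difference as the inhibitor effect in IL-21 minus that in IL-2. It was called for 13 of the 40 genes, 6 positive and 7 negative, with 21.8% of all genes called (7.98% positive, 13.8% negative). The medians were 0.14 for the 40 genes and -0.08 for all genes. The count moved with single libraries: it was 23 without IL-21 replicate 1 and 8 without either IL-2 library or IL-21 + LDHi replicate 1. It was 7 without IL-2 + LDHi replicate 2 or IL-21 + LDHi replicate 2, and 6 without IL-2 + LDHi replicate 1. By library size alone the split was 4 positive and 8 negative, and on log2(RPKM + 1) 1 and 7; the positive share of all calls was 36.7%, 25.3% by library size alone and 50.1% on log2(RPKM + 1). Nqo1, Gclm, Glrx, Gpx1, Txnrd1 and Srxn1, all negative, passed under every alternative run. Across the 40 genes, Tkt, Idh1, Hmox1 and Glrx were called lower with the inhibitor in both cytokines, none was called higher in both, and Gclm alone was called in opposite directions. The shares of all genes with these patterns were not counted.

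**Figure D4:**
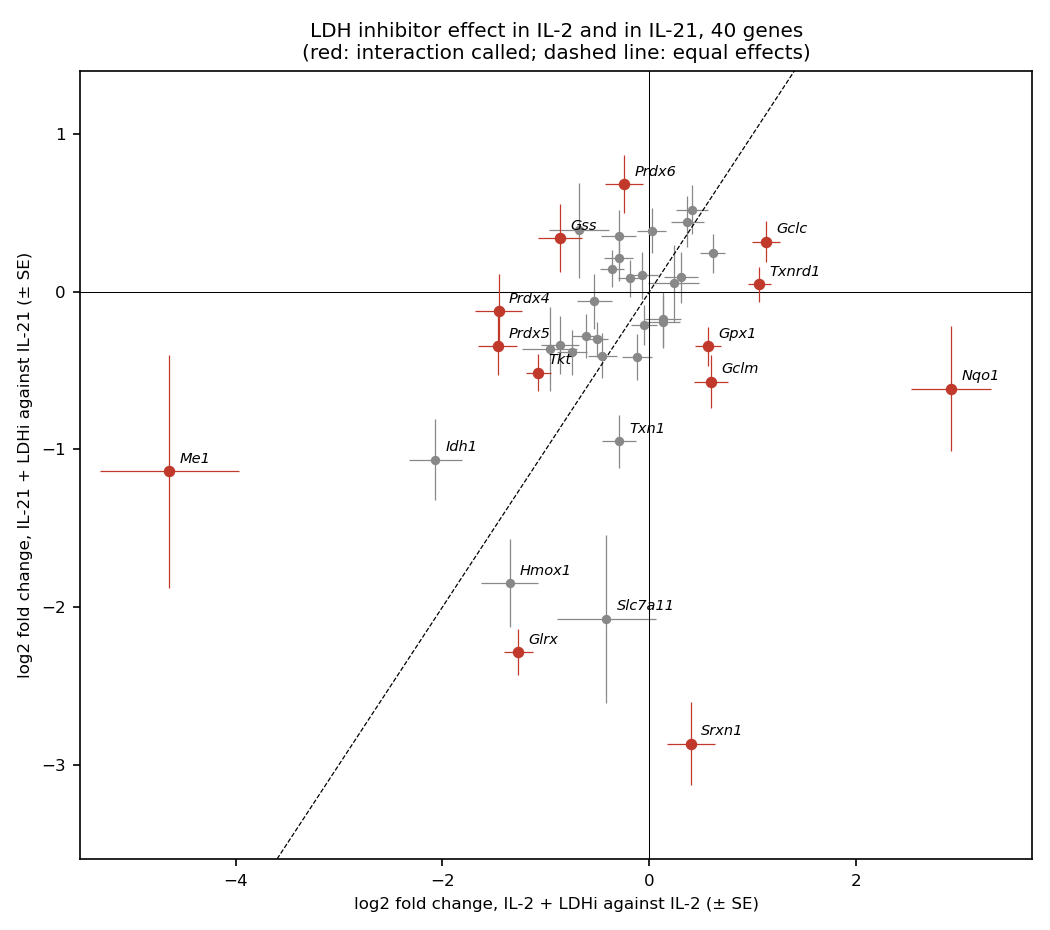
Log2 fold change ± SE of the inhibitor in IL-2 (horizontal axis) and in IL-21 (vertical axis) for the 40 genes, from read counts; red points have a called interaction and the dashed line marks equal effects. Nqo1 (2.92 and -0.61) and Srxn1 (0.40 and -2.87) lie farthest below the line, and Me1 (-4.64 and -1.14), which rests on few reads, lies farthest above it.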

How the data were processed

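Poly(A) RNA of 10 libraries from 5 groups of mouse CD8+ T cells was sequenced. The authors' deposited tables give read counts and RPKM per transcript on mm10; TopHat2 2.2.1, Bowtie2 2.2.6, SAMtools 0.1.8, bedtools 2.25.0 and edgeR are named per the submitters' processing notes, while the counting step and its strand setting are not given in the sources used here. The deposited RPKM values use the authors' read totals (45138204 to 62848913).

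Of 31682 transcripts, 23992 symbols were kept, each with its transcript of most reads. Read counts of 14357 genes with enough reads (edgeR's filterByExpr, minimum count 10, minimum total 15) were tested with edgeR 4.0.16 (quasi-likelihood test, TMM scaling, robust) in R 4.3.3, with the 5 groups in 1 fit and 7 comparisons. Adjusted p-values are Benjamini-Hochberg over all genes tested, called below 0.05, two-sided; ± after a log2 fold change is its SE. The scripts were tested on simulated data. The 40 genes and all lists were chosen with earlier results of these data known. Beyond the 40, up to 4 genes per comparison and list with the smallest p among those called could be named, plus the markers. No row carried the symbols Trac, Adgre1, Ly6g, Tigar, Rpel1 or Naprt, and other names of these genes were not searched. Gene positions and promoters are RefSeq, GRCm38.p6. Alternatives were RLE scaling, library size alone, DESeq2 1.42.0, no filter, limma 3.58.1 on log2(RPKM + 1) and log2(RPKM + 0.1), only the groups compared, a replicate block, the longest transcript and leaving out each library. No library pair was a duplicate.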

Additional observations from a re-analysis of the deposited data

Results flagged for a closer look

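For 13 of the 40 genes the effect of the inhibitor differed between IL-2 and IL-21 by the interaction term of edgeR's quasi-likelihood test, given here as the log2 effect in IL-21 minus that in IL-2. The difference was negative for 7: -3.53 ± 0.55 for Nqo1, -3.27 ± 0.35 for Srxn1, -1.17 ± 0.24 for Gclm, -1.02 ± 0.20 for Glrx, -1.01 ± 0.16 for Txnrd1, -0.91 ± 0.17 for Gpx1 and -0.81 ± 0.18 for Gclc. Nqo1, Txnrd1, Gclc and Gpx1 were called higher with the inhibitor in IL-2 only, Gclm higher in IL-2 and lower in IL-21, Srxn1 lower in IL-21 only, and Glrx lower in both.

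The difference was positive for 6: 3.50 ± 1.06 for Me1, 1.34 ± 0.33 for Prdx4, 1.21 ± 0.31 for Gss, 1.12 ± 0.26 for Prdx5, 0.93 ± 0.26 for Prdx6 and 0.56 ± 0.17 for Tkt. Each of these 6 calls ended without 1 of several libraries: for Tkt any of 9 (log2 0.52, adjusted p = 0.171 without IL-2 + LDHi replicate 1), for Me1 any of 6 (log2 3.47, adjusted p = 0.138 without IL-21 + LDHi replicate 1), and for Gss, Prdx4, Prdx5 and Prdx6 any of 5, at the weakest with adjusted p = 0.0970, 0.0798, 0.0723 and 0.161. The call for Gclc ended without any of 4 (log2 -0.77, adjusted p = 0.0634 without IL-2 + LDHi replicate 1). Over all genes tested 21.8% had a called interaction.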

How the results depend on the processing

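Over 19 alternatives, 59 of the 107 called values of the 40 genes kept their call in all; no value reversed. Of the 173 values not called, 86 gained a call under at least 1 alternative. The longest transcript changed no call. The cause of each change below was not tested. Counts of called genes among the 40, over fits that each left out 1 library, ran from 17 to 29 for IL-2 against no cytokine, 0 to 12 for IL-21 against no cytokine, 17 to 26 for IL-21 against IL-2, 14 to 26 and 4 to 20 for the inhibitor in IL-2 and in IL-21, 9 to 21 between the inhibitor groups and 6 to 23 for the interaction. Over all genes these ranges were 4956 to 8911, 749 to 3967, 4509 to 8370, 3109 to 7326, 2453 to 6660, 2055 to 5493 and 1750 to 5203. Fitting only the groups compared gave 0 of the 40 for IL-21 against no cytokine, 6 for the inhibitor in IL-21 and 25 between the inhibitor groups. Over all genes it gave 91 instead of 1658 calls for IL-21 against no cytokine, 4522 instead of 7123 for IL-21 against IL-2, 9069 instead of 5657 and 2259 instead of 4501 for the inhibitor in IL-2 and in IL-21, and 7352 instead of 3742 between the inhibitor groups. For the inhibitor in IL-21, DESeq2 called 16, and limma 6 on log2(RPKM + 1) and 5 on log2(RPKM + 0.1), instead of 10; limma on log2(RPKM + 1) called 8 instead of 13 interactions.

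The labels do not say that a replicate number marks a shared source, and the numbers were not taken as pairs. Of 10 group pairs, 3 had a correlation of deviations above 0.1 (range -0.147 to 0.483). The highest, 0.483, was between no cytokine and IL-21, which are compared above, and a shared source of these libraries was not tested. With the replicate number as a block, the fit called 24, 5, 20, 23, 11, 12 and 11 of the 40 genes in the 7 comparisons, in the order above, against 24, 5, 20, 22, 10, 13 and 13 without it; of 280 values 4 gained and 5 lost a call. Me1 had 2 to 94 reads per library and Slc7a11 16 to 369.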

Other observations

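Genes outside the 40 that handle the same metabolites or make oxidants also differed between groups. Ggt1, for the surface enzyme that starts the breakdown of extracellular glutathione, was at 1.48 RPKM without cytokine, 1.04 in IL-2, 25.5 with IL-21, 4.05 in IL-2 + LDHi and 101 in IL-21 + LDHi (means of 2 libraries). It rose in IL-21 against no cytokine (4.23 ± 0.19, adjusted p = 9.56e-06), and with the inhibitor in IL-2 (1.92 ± 0.18, adjusted p = 9.14e-05) and in IL-21 (1.98 ± 0.16, adjusted p = 2.84e-05), by edgeR's quasi-likelihood test. Chac1, for an enzyme that degrades glutathione inside the cell, rose in IL-2 (4.38 ± 0.43, adjusted p = 5.99e-05) and fell with the inhibitor there (-6.29 ± 0.50, adjusted p = 4.07e-05).

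Of 12 listed genes of superoxide and peroxide production, 7 had enough reads to be tested. All 7 fell with the inhibitor in IL-21, where 31.4% of all genes were called and 20.3% were called lower. Their median log2 fold change was -1.62, against -0.03 for all genes. Xdh, for xanthine dehydrogenase, was at 10.1 RPKM without cytokine, 10.4 in IL-2, 9.75 with IL-21 and 9.65 in IL-2 + LDHi but 1.37 in IL-21 + LDHi, a fall with the inhibitor in IL-21 of -2.85 ± 0.15, adjusted p = 2.49e-06. Ncf1 and Ncf4, for cytosolic subunits of the phagocyte NADPH oxidase, fell there too (-1.62 ± 0.12, adjusted p = 1.78e-05 for Ncf1 and -1.61 ± 0.19, adjusted p = 0.000263 for Ncf4), as 7 of 10 macrophage and dendritic cell markers did; the part of such cells was not tested. Nqo2, for a quinone reductase related to NQO1, also fell there (-2.50 ± 0.21, adjusted p = 3.77e-05).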
